A study of Mus musculus with 6 samples.

Results

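The TNF receptor superfamily genes considered here were Tnfrsf25, Tnfrsf1a, Fas, Tnfrsf9, Tnfrsf4, Tnfrsf18, Cd27, Tnfrsf1b and Tnfrsf26. Of these 9 genes, 8 were read in resting splenic natural killer cells (NKC). Every probe set whose single annotated gene symbol was one of these names was taken, which gave 11 probe sets for 8 of the 9 genes, among 34945 probe sets for 18193 genes on the array. A probe set is a group of short oligonucleotides that together read a gene. Tnfrsf26 had no probe set under this rule and was not analysed here. The mice were of the ICR strain and 6 weeks old, 3 without the transcription factor Runx3 (Runx3-/-) and 3 wild type (WT, Runx3 +/+), and spleen NKC of each mouse were read on 1 array. Both groups were untreated. Other cells were first depleted, and DX5-positive cells were then sorted. DX5 is the integrin CD49b, which some other blood cells also carry. The labels name no cell type to which the deletion was limited, and the sex label reads male and female on every sample, although the design text assigns each sample to an individual mouse.

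Receptors of this superfamily bind trimeric ligands of the TNF family through cysteine-rich repeats outside the cell. A subgroup with a cytoplasmic death domain, to which DR3 (Tnfrsf25), TNF receptor type 1 (Tnfrsf1a) and Fas belong, can recruit the adaptors TRADD or FADD and through them activate NF-kB or caspases. Tnfrsf9, Tnfrsf4, Tnfrsf18, Cd27 and Tnfrsf1b lack a death domain and bind TRAF adaptors, which lead to NF-kB and survival signals. Of these, CD137 (Tnfrsf9), OX40 (Tnfrsf4), GITR (Tnfrsf18) and CD27 are known as costimulatory receptors of T cells and NKC. CD27 is also used to divide splenic NKC into maturation stages.

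NKC markers were bright in both groups, and markers of other cells were read on the same arrays. Of 12 NKC markers, 11 had a probe set and 10 were above log2 5 on at least 1 array, and the summed linear signal of the list was 158000 to 176000 in Runx3-/- and 158000 to 184000 in WT. Ncam1 was below log2 5 on all arrays, and Eomes, a T-box factor of mature NKC, was the only NKC marker that met the study's thresholds (lower in Runx3-/-; log2 change -0.70, limma adjusted p = 0.185). Runx3 itself had log2 signals of 7.76, 8.51 and 8.68 in Runx3-/- and 10.11, 11.56 and 10.73 in WT on its brighter probe set, with no overlap (log2 change -2.48, limma adjusted p = 0.0565). On the dimmer Runx3 probe set WT replicate 3 alone reached log2 5 (5.88), and it is not known whether the deletion covers the sequence that either set reads. Between 37.8% and 39.4% of the probe sets on an array reached log2 5. Among the stress signals, 0 of 9 tested heat shock genes were higher and 5 lower in Runx3-/- by the study's limits, against 4.89% and 8.86% of all genes tested. The summed signals of the list were 39000 to 51000 in Runx3-/- and 66700 to 77500 in WT. That list was made with genes known to differ in these samples. Hsph1, a large heat shock protein, had the smallest p of all genes tested (log2 change -2.38). Macrophage and monocyte markers varied widely among the Runx3-/- arrays, with sums of 12700, 3660 and 529 in replicates 1, 2 and 3 and of 2100 to 2740 in WT. Neutrophil marker sums were 417 to 3950 and 311 to 4210. The part of these signals in the receptor differences was not tested.

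The promoters of the 2 receptor genes whose groups did not overlap are shown because the deleted protein is a DNA-binding factor. The canonical RUNX motif, taken as TGTGGT or TGTGGC or TGCGGT or TGCGGC, was searched on both strands in the RefSeq promoter windows (build GRCm38.p6) of the receptor genes, each from 250 bases before to 50 bases after an annotated start. The windows below are written 5′ to 3′ on the gene's strand, with motif letters in capitals.
Tnfrsf25, chr4:152115684-152115983, plus strand: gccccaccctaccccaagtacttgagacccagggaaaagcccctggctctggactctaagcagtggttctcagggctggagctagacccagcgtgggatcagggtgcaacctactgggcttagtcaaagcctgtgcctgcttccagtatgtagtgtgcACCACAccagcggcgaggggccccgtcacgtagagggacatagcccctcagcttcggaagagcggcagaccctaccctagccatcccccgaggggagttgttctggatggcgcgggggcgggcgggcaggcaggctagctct
Tnfrsf9, chr4:150919905-150920204, plus strand: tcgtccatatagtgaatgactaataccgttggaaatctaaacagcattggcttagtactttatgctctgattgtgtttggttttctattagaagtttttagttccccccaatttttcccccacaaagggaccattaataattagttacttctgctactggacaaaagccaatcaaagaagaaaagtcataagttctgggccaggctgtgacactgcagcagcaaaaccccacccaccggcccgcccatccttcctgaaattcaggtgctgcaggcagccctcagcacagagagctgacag
Tnfrsf9, chr4:150927749-150928048, plus strand: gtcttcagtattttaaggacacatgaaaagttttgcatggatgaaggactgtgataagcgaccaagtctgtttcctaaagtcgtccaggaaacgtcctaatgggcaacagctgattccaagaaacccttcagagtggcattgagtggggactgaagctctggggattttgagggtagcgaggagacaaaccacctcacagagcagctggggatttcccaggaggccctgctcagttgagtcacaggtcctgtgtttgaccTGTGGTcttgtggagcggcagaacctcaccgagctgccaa
The Tnfrsf25 window held TGTGGT on the opposite strand, which reads as its reverse complement in the printed window, with the first of these letters 92 bases before the start. Another start of Tnfrsf25, not shown, had no match. The first Tnfrsf9 window had no match, and the second held TGTGGT on the gene's strand, 10 bases after the start. Of the 10 windows of the 8 receptor genes with a window, 4 held any of these letters, the other 2 being those of Cd27 and Fas, and 2 held TGTGGT. Among all 32851 windows of the same length, 45.2% held any of the 4 and 16.8% held TGTGGT. A match of letters is a description and not a measured binding site.

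In Runx3-/- NKC, DR3 rose 5.28-fold and CD137 had a 3.56-fold lower signal on its brightest probe set. GITR, CD27 and the TNF receptors of types 1 and 2 were bright in both groups and passed neither of the criteria used here. OX40 and Fas were dim on every array. Of the 9 genes, 6 reached log2 5 on at least 1 array and were tested, each on the probe set with the highest mean. Of these 6, 1 was higher and 0 lower at a Benjamini-Hochberg adjusted p under 0.05 (BH 5%) in the limma fit over 9545 genes, in which 0.283% of the genes were higher and 0.325% lower at this level. The study asked for a 1.5-fold change and p under 0.05 without adjustment, and by these limits 1 receptor was higher and 1 lower, against 4.89% and 8.86% of the 9545 genes. Those shares depend on scaling, being 467 higher and 846 lower genes on the deposited values and 627 and 498 with each array centred on the median of the genes tested. The groups did not overlap in 2 of the 6, against 22.8% of all genes tested. The median change of the 6 receptors was -0.28 on the log2 scale, and that of all genes tested was -0.13.

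**Figure D1:**
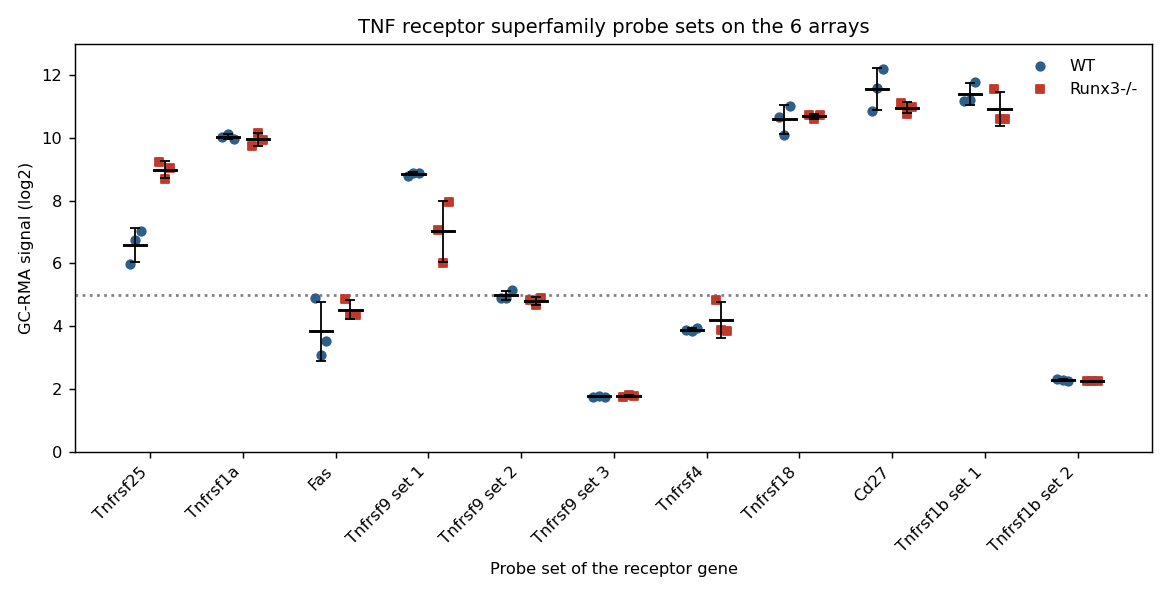
GC-RMA signal (log2, vertical axis) of each of the 11 receptor probe sets (horizontal axis, brighter sets first within a gene) on 3 WT arrays (circles) and 3 Runx3-/- arrays (squares), with black bars for the mean and SD and a dotted line at log2 5. The groups separate for Tnfrsf25, with Runx3-/- at 8.71 to 9.23 above WT at 6.00 to 7.04, and for the first Tnfrsf9 set, with Runx3-/- at 6.03 to 7.97 below WT at 8.80 to 8.89.

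Among the receptors with a death domain, Tnfrsf25 encodes DR3, the receptor of the cytokine TL1A. Its log2 signals were 9.23, 8.71 and 9.05 in Runx3-/- and 6.00, 6.75 and 7.04 in WT. Every Runx3-/- array lay above every WT array, and the lowest signal was that of WT replicate 1. The means were 8.99 ± 0.26 (SD, n = 3) without Runx3 and 6.60 ± 0.54 (SD, n = 3) with it, a 5.28-fold rise with a log2 change of 2.40 (95% confidence interval 1.68 to 3.11; limma adjusted p = 0.0373). Among the 9545 genes this was the rise of rank 24. DR3 has 1 probe set on the array, of a kind designed to read several transcripts of the same gene, so its isoforms were not told apart. In the fit over all 16521 probe sets above log2 5 the adjusted p was 0.0588, with the same difference, and 0.0847% of those probe sets passed BH 5%. Leaving out any array other than WT replicate 1 also put it above 0.05 (limma adjusted p = 0.0800 to 0.138), and without WT replicate 1 it was 0.0303. The log2 changes were 2.10 to 2.62 over these 6 fits. Of the 9545 genes, 128 passed BH 5% without WT replicate 1, and 0 passed when any other array was left out.

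The genes whose 6 values followed those of Tnfrsf25 most closely were Ckb, Il6 and Cyp11a1, with root mean square differences of 0.31, 0.33 and 0.35 log2 units after each gene was centred on its mean. Ckb encodes brain-type creatine kinase, Il6 a cytokine and Cyp11a1 a steroidogenic enzyme. Because these 3 genes were chosen by that likeness, a rise of each follows from the choice. Their log2 changes were 2.69, 2.12 and 2.02 on the deposited values (limma adjusted p = 0.0307, 0.0213 and 0.0486), and Ckb lay below log2 5 on WT replicate 1. Cyp11a1 is on the list of basophil and mast cell markers and Ckb on that of type 1 innate lymphoid and tissue-resident NK cells. By the study's limits 7 of 10 tested basophil and mast cell markers were higher and 0 lower, against 4.89% and 8.86% of all genes tested. The summed linear signal of the list was 22600 to 39900 in Runx3-/- and 7430 to 8710 in WT. Of the 9 tested markers of type 1 innate lymphoid and tissue-resident NK cells, 7 were higher and 0 lower, with sums of 4810 to 6790 and 2760 to 5160. Both lists were chosen with earlier results of these data known. Every marker of both lists that had a probe set reached log2 5 on at least 1 array. The basophil and mast cell sums did not overlap between the groups, whereas those of the type 1 innate lymphoid list did. Gene by gene, 8 of 10 and 8 of 9 tested markers were higher without overlap. Among the 8 of 10, Il4 reached log2 5 only on Runx3-/- replicate 1 (5.67), so it was tested only through the group where it was high. Of all genes tested, 22.8% did not overlap, counting both directions. Il7r, the brightest gene of the type 1 innate lymphoid list, overlapped, with a log2 change of -0.14. The part of either cell type in the rise of DR3 was not tested. In such bulk samples, a change in the number of cells of a type and a change in RNA per cell cannot be told apart.

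TNF receptor type 1 (Tnfrsf1a), which signals through TRADD, had log2 signals of 9.75, 10.16 and 9.95 in Runx3-/- and 10.04, 10.12 and 9.97 in WT. The groups overlapped and the arrays of each lay close together. The log2 change was -0.09 (95% confidence interval -0.55 to 0.37; limma adjusted p = 0.855). Its sign turned to 0.03 with each array centred on the median of the genes tested, a scaling under which the median change of all genes was -0.01. Fas, the receptor of Fas ligand, was read by 1 probe set with log2 signals of 4.88, 4.35 and 4.35 in Runx3-/- and 4.90, 3.07 and 3.52 in WT. All 6 values lay below log2 5, so Fas was not tested and no fold change is given.

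Among the receptors without a death domain, Tnfrsf9 encodes CD137, known to promote proliferation of activated T cells and NKC. Its brightest probe set had log2 signals of 7.08, 6.03 and 7.97 in Runx3-/- and 8.80, 8.89 and 8.89 in WT. Every Runx3-/- array lay below every WT array, the lowest being Runx3-/- replicate 2, and the WT arrays nearly coincided. The means were 7.03 ± 0.97 (SD, n = 3) without Runx3 and 8.86 ± 0.05 (SD, n = 3) with it, a 3.56-fold difference (log2 change -1.83, 95% confidence interval -2.87 to -0.79). By unadjusted p, 0.00388 in limma, and by size it was within the study's limits, and it did not pass BH 5% (adjusted p = 0.134). The spread was uneven between the groups. Of all genes tested, 97.2% had a smaller SD among the Runx3-/- arrays than Tnfrsf9, and 3.28% a smaller SD among the WT arrays. Leaving out Runx3-/- replicate 2 gave a log2 change of -1.33, and leaving out Runx3-/- replicate 3 gave -2.31.

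CD137 was read by 3 probe sets, and the lower signal was seen on the brightest of them. The second lay near the limit, at 4.82, 4.66 and 4.91 in Runx3-/- and 4.90, 4.90 and 5.15 in WT, and only WT replicate 3 reached log2 5 (log2 difference -0.18). The groups overlapped on this set. The third lay between 1.74 and 1.82 on all arrays, far below log2 5. With the mean of the 3 probe sets the log2 change of Tnfrsf9 was -0.67, a 1.59-fold difference. Over all 16521 probe sets, 2 receptor probe sets met the study's thresholds, those of Tnfrsf25 and the brightest of Tnfrsf9, against 12.9% of all.

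The genes nearest to Tnfrsf9 in pattern over the 6 arrays were Lyplal1, Gemin5 and Npc1, with root mean square differences of 0.34, 0.42 and 0.44 log2 units. Chosen by likeness too, they were bound to be lower in Runx3-/-. Npc1, a cholesterol transporter of late endosomes, had a log2 change of -1.80 (limma adjusted p = 0.0373). Lyplal1 and Gemin5 had log2 changes of -1.38 and -1.31 (limma adjusted p = 0.150 and 0.117). Lyplal1 belongs to the lysophospholipase-like proteins, and Gemin5 encodes an RNA-binding subunit of the SMN complex. Regulatory T cells and dendritic cells can carry CD137 as well. Of 7 regulatory T cell markers with a probe set, Foxp3, Ctla4, Il2ra, Ikzf4 and Gpr83 were below log2 5 on all arrays. The 2 tested were Icos, at 9.31 to 9.77 in Runx3-/- and 8.16 to 9.22 in WT, and Nrp1, at 7.01 to 8.18 and 7.53 to 7.78. The summed signal of the list was 803 to 1150 in Runx3-/- and 509 to 857 in WT. Of 8 dendritic cell markers with a probe set, Xcr1, Siglech, Ccr9 and Cd209a were below log2 5 on all arrays, and the sum was 579 to 1180 in Runx3-/- and 1700 to 3850 in WT. Itgax, the CD11c integrin, made up most of the difference between these sums, with log2 signals of 9.91, 8.63 and 9.30 in Runx3-/- and 10.58, 11.84 and 11.41 in WT. The other 3 tested markers of the list had log2 changes of 0.36 (Batf3), 0.44 (Zbtb46) and -0.35 (Flt3), and the median over the 4 was 0.0074. These 3 were dim, at log2 4.44 to 6.42. The part of the Itgax signal in the CD137 result was not tested.

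OX40 (Tnfrsf4), a receptor of activated T cells, stayed below log2 5 on every array. Its log2 signals were 4.85, 3.88 and 3.84 in Runx3-/- and 3.87, 3.85 and 3.94 in WT, with only Runx3-/- replicate 1 apart from the rest. It was not tested. GITR (Tnfrsf18) had 10.74, 10.60 and 10.73 in Runx3-/- and 10.66, 10.11 and 11.03 in WT. The Runx3-/- values lay inside the range of the WT values, and the log2 change was 0.09 (95% confidence interval -0.53 to 0.71; limma adjusted p = 0.896). Without WT replicate 2 it was -0.16.

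CD27, whose ligand is CD70, had log2 signals of 11.13, 10.78 and 10.98 in Runx3-/- and 10.88, 11.59 and 12.22 in WT. WT replicates 2 and 3 lay above all Runx3-/- arrays and WT replicate 1 among them. T cells carry CD27 too, and of 12 T cell markers, all with a probe set, 5 were below log2 5 on all arrays, among them Cd4, Cd8a and Cd8b1. The 7 tested were Bcl11b, Cd28, Cd3d, Cd3e, Cd3g, Cd5 and Lef1, the brightest being Cd28 at 11.15 to 12.12. By the study's limits 0 of them were higher and 0 lower. The summed signals of the list were 4640 to 4680 in Runx3-/- and 3650, 6230 and 7670 in WT replicates 1, 2 and 3, the order of CD27 in WT. The part of T cells in the CD27 signal was not tested. The log2 change was -0.60 (95% confidence interval -1.39 to 0.19; limma adjusted p = 0.421), which did not meet the study's thresholds. Without WT replicate 1 the change was -0.94 and met them (limma adjusted p = 0.132, unadjusted p = 0.0109), and without WT replicate 3 it was -0.27. TNF receptor type 2 (Tnfrsf1b), which binds TNF and recruits TRAF2, had 11.56, 10.62 and 10.60 in Runx3-/- and 11.20, 11.22 and 11.79 in WT on its brighter probe set. Runx3-/- replicate 1 lay among the WT arrays and the other two below them. The same array had the highest signal of Csf1r, the macrophage growth factor receptor, at 12.19 against 10.03 and 5.85 on the other Runx3-/- arrays and 8.79 to 9.56 in WT, and the part of macrophages in the Tnfrsf1b signal was not tested. The log2 change was -0.47 (95% confidence interval -1.23 to 0.28; limma adjusted p = 0.497), and without Runx3-/- replicate 1 it was -0.79 and met the study's thresholds (limma adjusted p = 0.241, unadjusted p = 0.0222). The other Tnfrsf1b probe set lay between 2.24 and 2.30 on all arrays, far below log2 5.

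**Figure D2:**
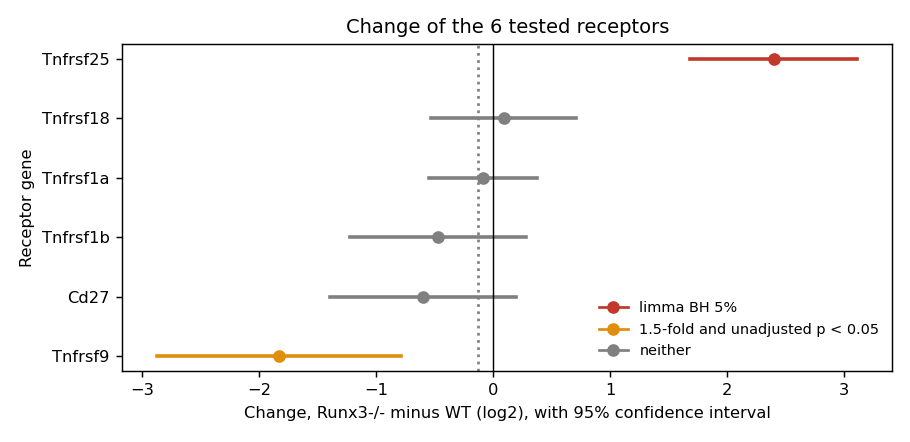
Log2 change, Runx3-/- minus WT (horizontal axis), of the 6 tested receptors (vertical axis), with points for the change and lines for its 95% confidence interval, coloured by the criterion met; the dotted line marks the median of all genes tested, -0.13. The intervals of Tnfrsf25 (1.68 to 3.11) and Tnfrsf9 (-2.87 to -0.79) exclude 0 and those of the other receptors include it.

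Both genes lie on chromosome 4, as do Tnfrsf4, Tnfrsf18 and Tnfrsf1b, and the tested genes next to them were read as well. The neighbours of Tnfrsf25 in RefSeq order were Plekhg5 and Acot7, with log2 changes of -0.10 (95% confidence interval -0.86 to 0.66; limma adjusted p = 0.909) and -0.16 (-0.79 to 0.46; adjusted p = 0.791). The neighbours of Tnfrsf9 were Park7, which protects cells from oxidative stress, and Vamp3, a vesicle SNARE. Park7 lay between 11.96 and 12.18 on the log2 scale in Runx3-/- and between 12.31 and 12.92 in WT, a 1.53-fold difference without overlap. This was within the study's limits but did not pass BH 5% (limma adjusted p = 0.253). Vamp3 had a log2 change of 0.06 (95% confidence interval -0.72 to 0.83; limma adjusted p = 0.950).

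In the rest of the TNF receptor superfamily, 19 genes had a probe set and 6 of them reached log2 5 on at least 1 array. At the study's thresholds 0 of these 6 differed, and their median log2 change was 0.28. Tnfrsf13b, the TACI receptor of B cells, had 7.67, 7.49 and 7.19 in Runx3-/- and 7.12, 6.85 and 6.72 in WT. The groups did not overlap, with a log2 change of 0.55 (limma adjusted p = 0.288) that stayed just under 1.5-fold and passed it, at 0.59, with each array centred on the median of its probe sets. Of 9 tested B cell markers 3 were higher and 0 lower by the study's limits, against 4.89% and 8.86% of all genes tested. Among these 3, Cd79a reached log2 5 on the Runx3-/- arrays only, at 5.57 to 6.03 against 2.36 to 4.17 in WT. It thus entered the test only through the group where it was high. Pax5 and Vpreb3 were below log2 5 on all arrays, and the summed signal of the list was 4730 to 9010 in Runx3-/- and 3470 to 5220 in WT. The part of B cells in the Tnfrsf13b difference was not tested. Relt, Tnfrsf12a, Tnfrsf13c, Tnfrsf14 and Tnfrsf21 overlapped between the groups. Tnfrsf21, the death receptor DR6, ranged from 4.54 to 7.64 in Runx3-/- and from 3.82 to 6.17 in WT, and Tnfrsf14, the HVEM receptor, from 4.05 to 5.78 and from 2.87 to 5.91. The 13 genes below log2 5 on all arrays included Cd40, Ltbr and Tnfrsf10b, the TRAIL receptor.

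Of 18 ligands of the TNF family, 14 had a probe set and 6 were tested. Of these 6, 0 were higher and 2 lower by the study's limits, against 4.89% and 8.86% of all genes tested, with a median log2 change of -0.24. Tnfsf9, the ligand of CD137, had 4.79, 4.04 and 4.76 in Runx3-/- and 4.79, 5.89 and 6.22 in WT. Only WT replicates 2 and 3 reached log2 5, and with values below 5 raised to 5 the signal was at least 1.63-fold lower in Runx3-/-, which no longer met the study's thresholds (limma adjusted p = 0.329, unadjusted p = 0.0601). On the deposited values the adjusted p was 0.252. Tnfsf14, the LIGHT cytokine, had 9.06, 9.84 and 10.08 in Runx3-/- and 10.18, 10.28 and 11.19 in WT (1.85-fold lower on the deposited values, limma adjusted p = 0.303). With each array centred on the median of its probe sets its change was -0.85 and no longer met the thresholds (unadjusted p = 0.0533). Cd70 and Tnfsf4, the ligands of CD27 and OX40, and Tnf and Lta were below log2 5 on all arrays, and Tnfsf15 and Tnfsf18, the ligands of DR3 and GITR, had no probe set under the rule. Fasl had a log2 change of -0.02 (95% confidence interval -0.61 to 0.58; limma adjusted p = 0.984).

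Downstream of the receptors, a few genes in each list met the study's thresholds. Of 19 tested adaptors, ligases and death effectors, 0 were higher and 3 lower, against 4.89% and 8.86% of all genes tested. The median log2 change of the list was -0.13, equal to that of all genes tested. Traf1, an adaptor of CD137 and other receptors, had 9.49, 8.64 and 9.23 in Runx3-/- and 9.82, 10.03 and 10.32 in WT. Its groups did not overlap on this set (log2 change -0.94, limma adjusted p = 0.180), but they did on its dimmer set, where the change was -0.26. Traf2 had 8.87, 8.74 and 9.08 in Runx3-/- and 9.59, 9.69 and 9.86 in WT, again without overlap (log2 change -0.82, limma adjusted p = 0.134). Otulin, a linear ubiquitin deubiquitinase, was the third (log2 change -0.93, limma adjusted p = 0.133). Tradd and Fadd, the adaptors of the death domain, had log2 changes of -0.41 and 0.00 (limma adjusted p = 0.377 and 0.998).

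Of 19 tested NF-kB kinases, factors and feedback inhibitors, 0 were higher and 4 lower, against 4.89% and 8.86% of all genes tested. The median log2 change of the list was -0.09, which turned to 0.03 with each array centred on the median of the genes tested. Relb, a subunit of the alternative NF-kB pathway, had 8.73, 8.20 and 8.60 in Runx3-/- and 9.26, 9.66 and 9.65 in WT. The groups did not overlap, and the log2 change was -1.01 (limma adjusted p = 0.126). Map3k14, the kinase NIK that activates that pathway, had 6.96, 6.46 and 5.92 in Runx3-/- and 7.18, 7.10 and 7.59 in WT (log2 change -0.85, limma adjusted p = 0.242). The inhibitors Nfkbie and Nfkbib had log2 changes of -0.73 and -0.68 (limma adjusted p = 0.144 and 0.177), and on its dimmer probe set Nfkbie changed by -0.31. With the mean of all probe sets of a gene, 1 of this list met the thresholds. None of these 7 genes passed BH 5%. The counts were 3 of 19 and 4 of 19 genes, and 13.8% of all genes tested met the thresholds in either direction. Nfkbia and Tnfaip3, feedback inhibitors that NF-kB induces, had log2 changes of 0.03 and 0.12 (limma adjusted p = 0.954 and 0.795).

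**Figure D3:**
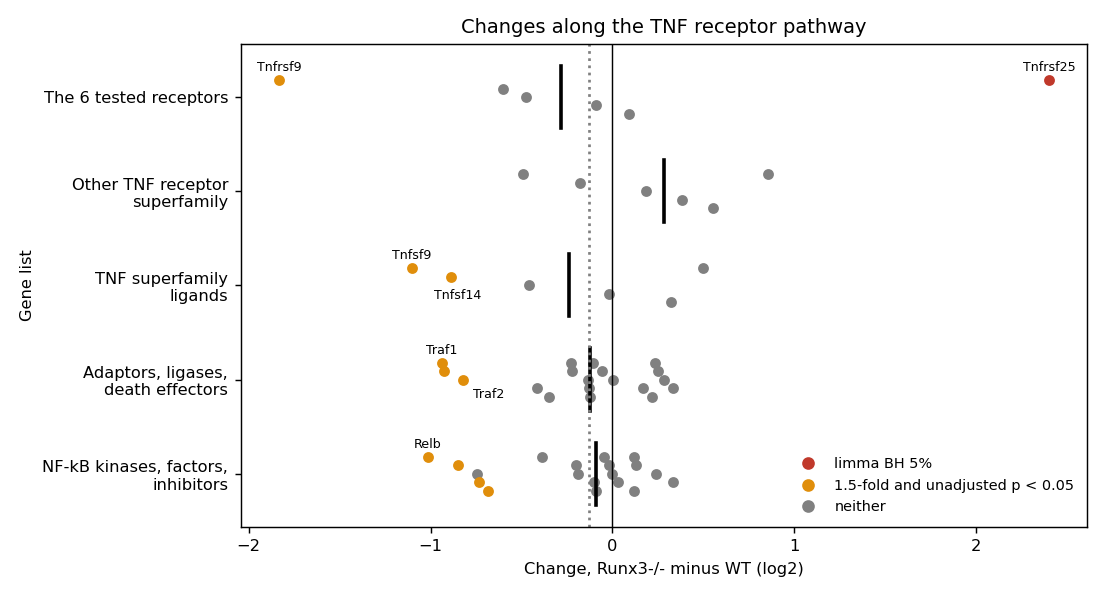
Each point is a tested gene of 1 of 5 lists (rows), placed by its log2 difference between Runx3-/- and WT (horizontal axis) and coloured by the criterion it met. Black bars are list medians and the dotted line is the median of all genes tested, -0.13. Tnfrsf25 (2.40) and Tnfrsf9 (-1.83) lie farthest from 0, and the other coloured genes, among them Relb (-1.01) and Traf1 (-0.94), lie below 0.

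**Figure D4:**
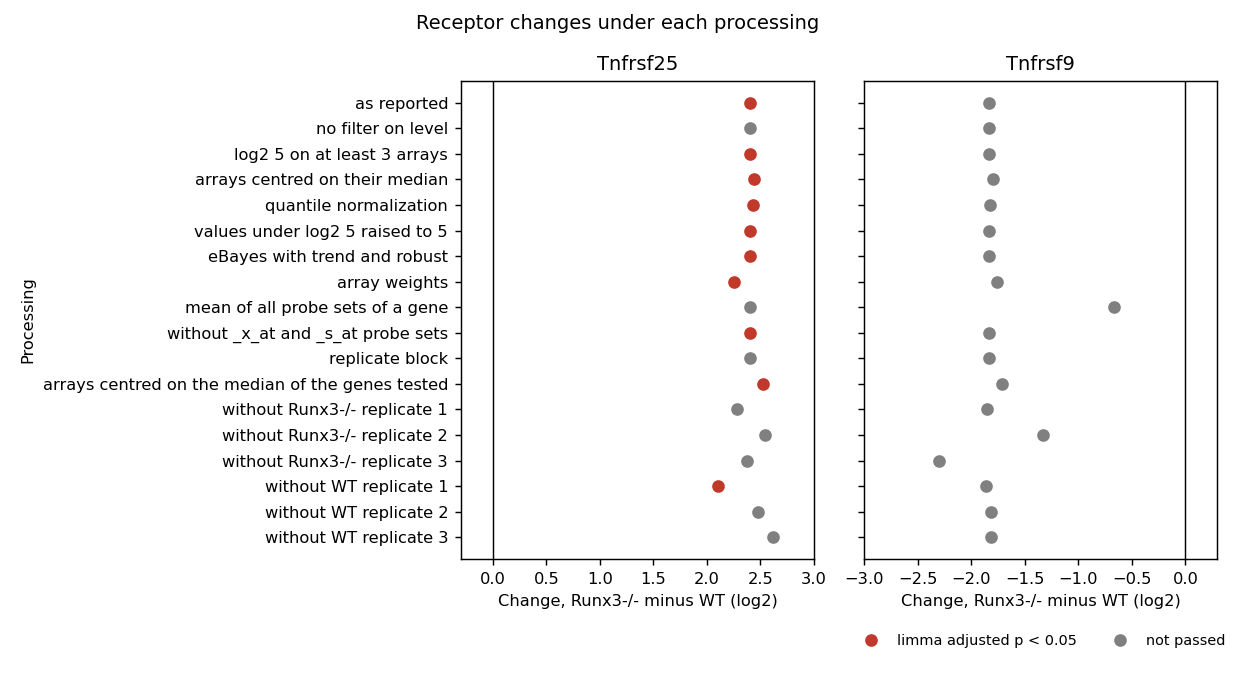
Log2 change, Runx3-/- minus WT (horizontal axes), of Tnfrsf25 (left) and Tnfrsf9 (right) as reported and under 17 other processings (vertical axis); filled red points passed a limma adjusted p of 0.05 and grey points did not. Tnfrsf25 stays between 2.10 and 2.62, and Tnfrsf9 between -2.31 and -1.33 apart from -0.67 with the mean of its probe sets.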

How the data were processed

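RNA of DX5-sorted splenic NKC was hybridised to Affymetrix mouse expression arrays, 1 per sample. The authors imported the scanner files into Partek, applied GC-RMA there and deposited the log2 values of 45101 probe sets for 6 arrays. The submitters' notes name Partek and GCRMA without a version. GC-RMA subtracts a background modelled on base content and normalizes across the arrays, so a change in total RNA cannot be seen. Dim values mostly follow the background model. The deposited arrays did not share exactly the same distribution, with 37.8% to 39.4% of their probe sets at log2 5 or above. Gene symbols came from the annotation of the array platform, in which 34945 probe sets had 1 symbol, 932 several and 9160 none, and 64 were controls. Which level the study took as background is not stated in its methods or labels, and log2 5 stood in for it.

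For each gene the brightest probe set by mean was taken, and the 9545 of 18193 genes that reached log2 5 on 1 or more arrays were fitted by limma 3.58.1 (lmFit, eBayes) in R 4.3.3, Runx3-/- minus WT, with no covariate. A second fit took all 16521 probe sets above the same limit. P-values were adjusted by Benjamini-Hochberg over everything fitted. The study names no exact test, so limma's was used with its thresholds. Confidence intervals are limma's, at 95%. Lists are described by counts and medians, and summed signals add linear values of the brightest probe set of each listed gene. The number of arrays limits the precision, and no batch is given in the labels. No pair of arrays shared more than 0.0111% of identical values. Genes, lists and tests were chosen with earlier results of these data known. The text names every gene of the rule, up to 4 genes per pathway list at the study's thresholds, the ligands of the receptors, the 3 nearest patterns and the neighbouring genes. Tnfrsf13b, Tnfrsf14, Tnfrsf21, Hsph1, Csf1r, Batf3, Zbtb46, Flt3, Tradd, Fadd, Nfkbia, Tnfaip3, Itgax and the other genes named outside this rule were chosen after their values were seen. Promoter sequences are from RefSeq, build GRCm38.p6, and 8 of the 9 genes matched.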

Additional observations from a re-analysis of the deposited data

How the results depend on the processing

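Of the 17 alternatives to the reported processing, 1, centring on the median of the genes tested, was chosen after seeing the data. Tnfrsf25 stayed higher in all 17 and met the study's thresholds in each, and Tnfrsf9 stayed lower and met them in each. The BH 5% call of Tnfrsf25, the only receptor that passed, was lost with no filter on level (log2 change 2.40, adjusted p = 0.122, with 18193 genes tested), with the mean of all probe sets (2.40, adjusted p = 0.0507) and with the replicate block (2.40, adjusted p = 0.0785), where 0 receptors passed, and over all alternatives its adjusted p ran from 0.0128 to 0.138. In fits that left out 1 array its change ran from 2.10 to 2.62, the count of receptors passing from 0 to 1 and that of all genes from 0 to 128. Tnfrsf9 had adjusted p from 0.0871 to 0.328. With array weights, and in the fits without Runx3-/- replicate 1 or WT replicate 1, 2 receptors were lower at the study's thresholds (1 to 2 when 1 array was left out), Cd27 or Tnfrsf1b being added. Of the receptor probe sets, 0 passed BH 5% as reported and 1 with trend and robust moderation, with array weights and with centring on the genes tested (0 to 1 when 1 array was left out). Tnfrsf1a reversed to 0.033 with that centring and ran from -0.19 to 0.013 when 1 array was left out, and Tnfrsf18 from -0.16 to 0.31. Of the other receptors of the superfamily, 1 met the study's thresholds with either centring and with array weights (0 to 1 when 1 array was left out). Of the ligands, 0 met them with no filter and 1 with log2 5 on at least 3 arrays, centring on all probe sets, quantile normalization, the floor at log2 5, array weights and the mean of all probe sets (0 to 2 when 1 array was left out). Of the NF-kB list, 1 met them with the mean of all probe sets and 2 without _x_at and _s_at probe sets (3 to 6 when 1 array was left out). The replicate numbers showed no clear pairing of the samples. Deviations from the group means correlated at 0.07, -0.19 and 0.15 for the same numbers and at -0.27 to 0.22 for unlike numbers. The block lowered the BH 5% count over all genes from 58 to 0. It also estimates more terms from the same 6 arrays, so this fall cannot decide on pairing. With 3 arrays a group, small differences in the other receptors were not detectable, and dim probe sets have no usable level.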
